A study of Mus musculus with 6 samples.

Results

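A set of 8 genes of nitric oxide and arginine metabolism was followed in pancreatic stellate cells (PSCs), the fibroblast precursors of the pancreas. They are the nitric oxide synthase genes Nos2, Nos3 and Nos1, the arginine recycling genes Ass1 and Asl, the cofactor gene Gch1, the arginine transporter gene Slc7a2 and the ornithine decarboxylase gene Odc1, and are 8 of the 55426 features measured. The set was chosen from the comparison of 1% with 21% O2 itself, in which Nos2 had already been seen to stand out, so the values of these 8 genes are given as a description and without p-values. RNA came from PSCs of adult wild-type C57BL/6 mice, embedded in Matrigel in a transwell insert above organoids of mT3. That is a single mouse pancreatic ductal adenocarcinoma (PDAC) line from a genetically engineered mouse tumor. The paper states that its mice included males and females, without giving the sex of the donors of these samples. The 3 normoxic samples were kept at 21% O2 and the 3 hypoxic samples at 1% O2, each for 48 h, and organoids were present in all 6, so PSCs without tumor cells were not measured here. The sources do not say whether the 3 samples of a condition came from separate PSC isolations, and the spread between them may therefore be technical.

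Nitric oxide synthases convert arginine and molecular oxygen into citrulline and nitric oxide (NO). Arginine is also a source of ornithine. Ass1 and Asl encode the enzymes that rebuild arginine from citrulline, Gch1 encodes the first enzyme of the synthesis of tetrahydrobiopterin, which synthases need as a cofactor, and Odc1 encodes the enzyme that turns ornithine into putrescine, the first polyamine. Nos2, the inducible synthase, is best known from activated macrophages, in which it is a textbook marker of activation state. Expression is given as CPM, counts scaled to a common library size by edgeR's TMM method, with the SD over 3 samples. A gene was called changed when its fold change in edgeR's quasi-likelihood fit exceeded 1.5 in either direction at an adjusted p under 0.05.

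All 8 genes passed the filter on low counts (about 0.386 CPM in at least 3 samples). By the call rule 3 of the 8 were higher in hypoxia (Nos2, Gch1 and Slc7a2), 1 was lower (Ass1), and 4 were not called (Asl, Odc1, Nos1 and Nos3). Among all 16207 genes tested, 34.2% were called, 18.9% higher and 15.3% lower. Samples of the 2 conditions did not overlap for 6 of the 8 genes, and for 68.9% of all genes tested. The median log2 fold change was 0.14 over the 8 genes and -0.0040 over all genes. Since the comparison served to choose the set, nothing is read from these shares. Just past the fold limit of 1.5 lay Ass1, 1.71-fold lower in hypoxia, and Slc7a2, 1.90-fold higher. Just short of it lay Asl, 1.34-fold lower, and Odc1, 1.28-fold higher.

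**Figure D1:**
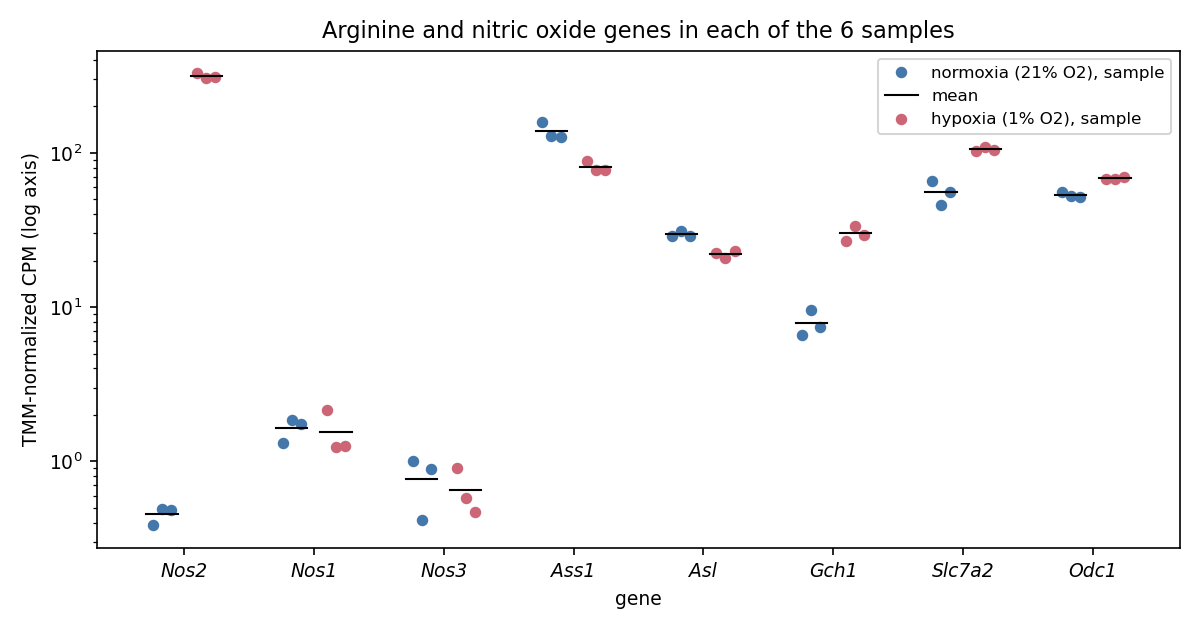
TMM-normalized CPM (log axis) of the 8 arginine and NO genes in each sample, with 3 points at 21% O2 and 3 at 1% O2 per gene. The hypoxic points lie above the normoxic ones for Nos2, Gch1, Slc7a2 and Odc1, lie below them for Ass1 and Asl, and overlap them for Nos1 and Nos3.

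Promoter sequence from RefSeq (GRCm38.p6), 250 bases before to 50 after a start site, was matched for 4 of the 8 genes, Ass1, Gch1, Odc1 and Nos1. The promoters of Gch1, which rose, and Ass1, which fell, are shown because they belong to the called genes among these 4. Capitals mark the letters ACGTG on either strand, here inside the palindrome CACGTG, and matches to the NF-kB consensus on either strand. ACGTG is a form of the core to which hypoxia-inducible factors bind, and other forms of it were not searched. The Gch1 promoter is chr14:47189364-47189663 on the minus strand and the Ass1 promoter is chr2:31470020-31470319 on the plus strand, each written 5′ to 3′.
Gch1: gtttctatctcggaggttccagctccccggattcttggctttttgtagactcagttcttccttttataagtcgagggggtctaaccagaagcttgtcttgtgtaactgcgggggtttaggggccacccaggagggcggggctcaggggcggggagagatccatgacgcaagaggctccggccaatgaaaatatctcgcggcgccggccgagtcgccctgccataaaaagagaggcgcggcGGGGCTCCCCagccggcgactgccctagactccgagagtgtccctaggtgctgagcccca
Ass1: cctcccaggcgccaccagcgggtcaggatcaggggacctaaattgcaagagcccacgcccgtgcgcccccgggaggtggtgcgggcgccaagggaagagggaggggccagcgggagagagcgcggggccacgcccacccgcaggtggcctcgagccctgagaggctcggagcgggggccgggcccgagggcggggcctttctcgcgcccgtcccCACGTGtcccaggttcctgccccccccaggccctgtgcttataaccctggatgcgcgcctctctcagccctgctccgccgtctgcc
Gch1 held 1 match to the NF-kB consensus, beginning 10 bases before the start site, and no ACGTG. The window of Nos1, which was not called, also held 1 match to that consensus, beginning 90 bases before its start site. That window (chr5:117866589-117866888) lies inside the annotated gene (117781032 to 117958840, plus strand) and not at its outermost start. Gch1 also held 2 copies of GGGCGG, the GC box, and 1 CCAAT, and TATAAA was found once, on the strand opposite to the printed one, beginning 188 bases before the start site. Ass1 held 1 CACGTG, beginning 36 bases before the start site, which reads ACGTG on both strands, 1 GGGCGG and no match to the NF-kB consensus. Each motif was searched on both strands, and of all 32851 promoters in the table, 19.6% held ACGTG, 7.15% CACGTG, 8.46% the NF-kB consensus, 35.7% GGGCGG, 37.4% CCAAT and 13.6% TATAAA. With 74% G and C bases, the Ass1 window was richer in them than the Gch1 window at 60.3%. A match describes letters only, and binding was not measured.

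Nos2 (ENSMUSG00000020826, chromosome 11, 78920787 to 78960254 on GRCm38) encodes the inducible, calcium-independent synthase. It had 10, 13 and 12 counts in the 3 normoxic libraries and 8346, 9580 and 9943 in the 3 hypoxic ones. As CPM these were 0.385, 0.493 and 0.487 against 328, 306 and 312. The normoxic samples thus sat near the limit of detection, since 3 counts correspond to 0.0943 to 0.1217 CPM, and the hypoxic samples lay close together, the highest 1.07 times the lowest. The mean was 0.455 ± 0.0608 CPM in normoxia and had risen to 315 ± 11.3 CPM in hypoxia (SD, n = 3 each), a log2 difference of 9.42. The standard error taken from the fit, 0.10, is too small for this gene, because its few normoxic counts carry more counting error.

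Nos3, the endothelial synthase gene, had 1.00, 0.418 and 0.893 CPM in normoxia and 0.903, 0.574 and 0.471 CPM in hypoxia. Nos1, the neuronal synthase gene, had 1.31, 1.86 and 1.745 CPM in normoxia and 2.16, 1.245 and 1.26 CPM in hypoxia. For both genes the conditions overlapped, with log2 fold changes of -0.26 (SE 0.39) for Nos3 and -0.09 (SE 0.28) for Nos1. At 11 to 26 counts per library for Nos3 and 34 to 55 for Nos1, a difference of this size was not detectable. With single libraries left out the value for Nos3 ran from -0.57 (without normoxia replicate 2) to -0.03 (without normoxia replicate 1), and that for Nos1 changed sign (-0.39 to 0.04). Exons of Nos3 overlapped those of antisense genes over 25.2% (Gm15587) and 7.12% (Atg9b) of their length, and reads from the opposite strand cannot be told apart where counting without strand was used, which the sources used here do not give. Per kilobase of exon, Nos2 had 0.243, 0.418 and 0.296 times the summed level of Nos1 and Nos3 in the normoxic samples and 180, 276 and 312 times that sum in the hypoxic ones.

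Because Nos2 is a macrophage gene in other settings, 15 macrophage markers were read in the same libraries. Their summed level was 1043, 1844 and 1450 CPM in normoxia and 543, 982 and 666 CPM in hypoxia, and none of them was at 0 in all 6 libraries. Lyz2, the lysozyme gene of myeloid cells, made up 55.6% to 63.1% of that sum. Without it, an alternative added after the values were seen, the other 14 markers summed to 390, 680 and 567 CPM in normoxia and 229, 436 and 288 CPM in hypoxia, so that hypoxia replicate 2 lay above normoxia replicate 1. Adgre1, which encodes the macrophage antigen F4/80, had 609, 1164 and 836 counts in normoxia and 252, 765 and 461 in hypoxia. Of the 14 markers tested, 9 were lower in hypoxia and 0 were higher by edgeR, and 7 to 11 were lower across the alternative fits. Samples of the 2 conditions overlapped for 8 of these 14 and lay lower in hypoxia for the other 6. At an unadjusted p under 0.05 all 11 that passed were lower, and neither DESeq2 (9 lower) nor limma-voom (11 lower) called 1 higher. Lyz2 fell from 900 ± 256 to 413 ± 120 CPM (log2 fold change -1.12, SE 0.23, edgeR adjusted p = 0.00241). Csf1r, the receptor for macrophage colony-stimulating factor, was at 40.4 ± 6.94 and 34.2 ± 8.597 CPM (edgeR adjusted p = 0.264). In bulk RNA, fewer cells of a type and less RNA per cell cannot be told apart.

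Among the hypoxic samples the summed markers were highest in replicate 2 and lowest in replicate 1, while Nos2 was highest in replicate 1 and lowest in replicate 2. The highest sum was 1.81 times the lowest, against 1.07 times for Nos2. Divided by the marker sum, Nos2 was at 0.603, 0.311 and 0.469 in the 3 hypoxic samples and at most at 0.000369 in the normoxic ones. These ratios were formed after the values were seen, rest on 3 samples per condition and carry no test, and which cells held the Nos2 RNA was not tested.

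**Figure D2:**
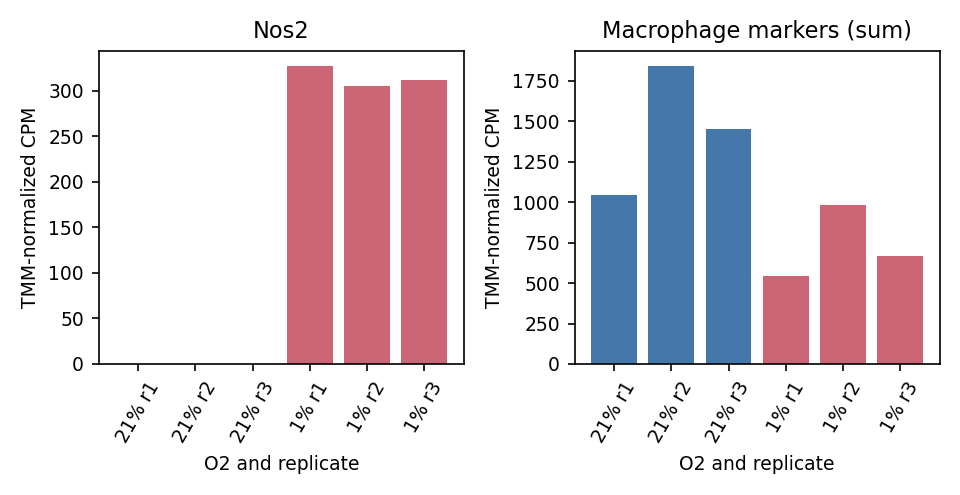
TMM-normalized CPM of Nos2 and of the sum of 15 macrophage markers, 1 bar per sample, with linear axes that start at 0 and differ between panels. Nos2 at 21% O2 (0.385 to 0.493 CPM) is too low to be seen, Nos2 is even across the hypoxic samples while the marker sum peaks in hypoxia replicate 2, and the marker sum is lower in every hypoxic sample than in any normoxic one, a separation that is lost when Lyz2 is left out of the sum.

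Ass1 (ENSMUSG00000076441, chromosome 2, 31470207 to 31520672), whose enzyme joins citrulline to aspartate, had 158, 129 and 126.5 CPM in normoxia and 88.1, 77.1 and 77.6 CPM in hypoxia. It fell from 138 ± 17.7 to 80.9 ± 6.22 CPM, a log2 fold change of -0.77 (SE 0.09). Asl, whose enzyme then releases arginine, had 29.0, 31.0 and 28.8 CPM in normoxia and 22.4, 20.7 and 23.1 CPM in hypoxia. Every hypoxic sample was below every normoxic one, but the log2 fold change of -0.42 (SE 0.07) did not reach the fold limit.

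Gch1 (ENSMUSG00000037580, chromosome 14, 47153895 to 47189413) had 6.545, 9.53 and 7.425 CPM in normoxia and 26.9, 33.7 and 29.4 CPM in hypoxia. It rose from 7.83 ± 1.53 to 30.01 ± 3.44 CPM, a log2 fold change of 1.94 (SE 0.14). Slc7a2, which encodes the cationic amino acid transporter CAT2, had 65.2, 45.7 and 55.7 CPM in normoxia and 102, 109.5 and 105 CPM in hypoxia. It rose from 55.5 ± 9.78 to 105.5 ± 3.68 CPM, a log2 fold change of 0.93 (SE 0.11). Exons of Slc7a2 overlapped the antisense gene Gm26584 over 6.95% of their length. Odc1 had 55.8, 52.2 and 51.5 CPM in normoxia and 67.5, 67.3 and 70.2 CPM in hypoxia. Its conditions did not overlap, yet its log2 fold change of 0.36 (SE 0.05) was below the fold limit.

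Ranked by CPM per kilobase of exon, the order of the 8 genes differed between conditions. In normoxia Ass1 led at 57.2 ± 7.33, followed by Odc1 at 15.6, Asl at 6.13, Slc7a2 at 6.08 and Gch1 at 1.25. Nos3 (0.186), Nos1 (0.147) and Nos2 (0.103) came last. In this order Asl and Slc7a2 overlapped, as did Nos3 and Nos1, and the other neighbours did not. In hypoxia Nos2 led at 71.5 ± 2.56, followed by Ass1 at 33.5, Odc1 at 20.1, Slc7a2 at 11.6, Gch1 at 4.80 and Asl at 4.57. Nos3 (0.157) and Nos1 (0.139) were then the lowest. Gch1 and Asl overlapped here, as did Nos3 and Nos1, and the other neighbours did not.

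**Figure D3:**
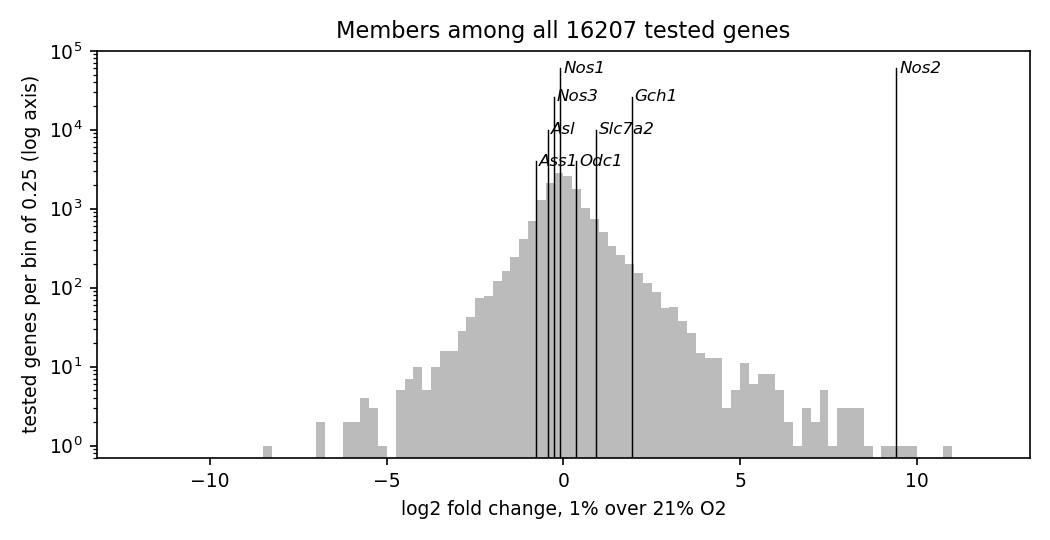
Number of tested genes (log axis) by log2 fold change of 1% over 21% O2, in bins of 0.25, with the 8 arginine and NO genes marked. Most of the 8 lie within the bulk of all 16207 genes, whereas Nos2 at 9.42 lies near its right end and Gch1 (1.94) lies in its right flank.

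Outside these 8 genes, the 17 lists of the wider pathway held 93 genes of the table, of which 83 were tested. By edgeR 12 were higher and 19 lower in hypoxia, 31 in all or 37.3%, close to the 34.2% of all genes tested, and their median log2 fold change was -0.20. Every adjusted p below comes from edgeR's fit across all genes.

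In the mitochondrial part of the urea cycle, Nags, which encodes the enzyme making the activator of carbamoyl phosphate synthetase, had 3, 0 and 0 counts in normoxia and 122, 162 and 132 in hypoxia. The ratio of its summed counts per TMM-scaled library size was 120 (95% counting interval 40.9 to 586, which covers counting error only, edgeR adjusted p = 4.63e-06), and 15.6% of its exon length overlapped antisense genes. All 3 normoxic counts came from replicate 1. The log2 fold change of Nags was 6.20 to 7.52 in the other fits except the one without that library, in which the remaining normoxic libraries were at 0. There the fitted value of 10.04 is no bound. With 3 counts set over those remaining libraries the ratio is 79.8, which is no minimum, since the interval over all libraries begins at 40.9. The liver enzymes of the same steps, Cps1 and Otc, had at most 1 count in any library. Among 7 further transporter genes 1 rose and 1 fell, and 1 or 2 fell in the alternative fits. Slc7a4 (-0.57, adjusted p = 0.0303) was called lower in 4 of 15 of these. Slc7a3, the CAT3 gene, rose from 1.84 ± 0.122 to 3.59 ± 0.683 CPM (adjusted p = 0.00244), whereas Slc25a29, a mitochondrial carrier of basic amino acids, fell from 8.90 ± 0.389 to 3.19 ± 0.898 CPM (adjusted p = 0.000118). The constitutive carrier Slc7a1 was at 34.7 ± 1.51 and 34.0 ± 3.56 CPM (adjusted p = 0.766).

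Of 5 further genes of tetrahydrobiopterin metabolism tested, 0 rose, 1 fell and 4 were not called, and 1 or 2 fell in the alternative fits. Qdpr, whose enzyme regenerates the cofactor, fell from 58.3 ± 5.10 to 34.8 ± 1.40 CPM (adjusted p = 2.63e-05), and 18.6% of its exon length overlapped antisense genes. The later synthetic steps, Pts and Spr, had log2 fold changes of -0.03 (SE 0.15) and -0.07 (SE 0.06). Pcbd1, which encodes a dehydratase that recycles the cofactor, had 17 to 38 counts in normoxia and 14 to 22 in hypoxia (log2 fold change -0.86, SE 0.34, adjusted p = 0.0524), and was called lower in 4 of 15 alternative fits. Pcbd2 (-0.51) was called lower in 1.

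Odc1 opens polyamine metabolism, whose other genes were read next. Of 4 synthesis genes beyond Odc1, 3 fell and 0 rose. Srm, the spermidine synthase gene, fell from 64.9 ± 2.51 to 40.2 ± 1.99 CPM (adjusted p = 1.22e-05). Amd1 and its near-identical copy Amd2, which encode S-adenosylmethionine decarboxylase, share reads and were uncertain singly. Their summed level was 54.5 ± 1.92 CPM in normoxia and 28.5 ± 2.22 CPM in hypoxia. Of 5 breakdown and export genes, 2 rose and 1 fell, and 1 or 2 fell in the alternative fits. Paox (-0.54, adjusted p = 0.00523) was called lower in 3 of 15 of these. Sat1, the gene of the acetyltransferase that starts polyamine breakdown, had 141, 159 and 153 CPM in normoxia and 430, 492 and 477 CPM in hypoxia, a log2 fold change of 1.63 (SE 0.07, adjusted p = 2.82e-07). The spermine oxidase gene Smox rose from 24.5 ± 0.961 to 39.6 ± 2.70 CPM (adjusted p = 3.18e-05), and Sat2 fell by 0.69 on the log2 scale (SE 0.16, adjusted p = 0.00435). edgeR called 0 of 4 antizyme and antizyme inhibitor genes and 0 of 4 hypusine genes. At an unadjusted p under 0.05 there were 3 of the former, all lower, and 4 of the latter, 3 lower and 1 higher, and DESeq2 and limma-voom called 0 in both lists.

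Of 7 genes that link ornithine and proline, 1 rose and 2 fell. Aldh4a1, which completes the oxidation of proline to glutamate, fell from 47.5 ± 6.00 to 11.9 ± 0.459 CPM (log2 fold change -1.99, SE 0.10, adjusted p = 4.22e-07), and 32.5% of its exon length is shared with Gm21969 on the same strand. Prodh, which starts that oxidation, rose by 1.08 on the log2 scale (SE 0.31, adjusted p = 0.0132) from a low level of 0.815 ± 0.319 CPM. This call was lost without hypoxia replicate 2 (0.952) and without normoxia replicate 3 (0.971). Pycrl, a pyrroline-5-carboxylate reductase gene, had a log2 fold change of -0.61 (adjusted p = 0.000316) and was short of the fold limit without normoxia replicate 2 (-0.543) or hypoxia replicate 3 (-0.56). Both tested genes of creatine synthesis from arginine fell. They were Gamt, from 9.26 ± 1.02 to 2.06 ± 0.440 CPM (adjusted p = 8.28e-06), and Gatm, from 4.91 ± 1.97 to 1.60 ± 0.479 CPM (adjusted p = 0.00244). Of 8 protein arginine methyltransferase genes 1 fell, Prmt7, by 0.65 on the log2 scale (SE 0.09, adjusted p = 0.000169). In the alternative fits 1 or 2 fell, and Prmt3 (-0.57, adjusted p = 0.000104) was called lower in 5 of 15 of them.

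Genes that act on the synthases or on NO itself were also read. Ddah1, whose enzyme degrades the methylarginines that inhibit NO synthases, rose from 9.44 ± 2.05 to 33.5 ± 1.36 CPM (log2 fold change 1.83, SE 0.13, adjusted p = 4.30e-06). Its relative Ddah2 was at 63.3 ± 3.79 and 60.7 ± 4.35 CPM (adjusted p = 0.455). edgeR called 0 of 9 genes whose proteins bind or modulate the synthases, among them Nosip and Cav1. At an unadjusted p under 0.05 there were 5, of which 4 were lower and 1 higher, and DESeq2 and limma-voom called 0. Cav1, the caveolin gene (-0.60, adjusted p = 0.0581), was called lower in 4 of 15 alternative fits and ranged from -0.78 to -0.17 over them, and Calm3 (-0.55) was called lower in 1. Of 6 genes for the NO receptor and its cGMP effectors 4 fell and 0 rose, and 2 to 4 fell across the alternative fits. Gucy1b1, a subunit gene of soluble guanylate cyclase, the NO receptor, fell from 6.52 ± 0.686 to 2.50 ± 0.581 CPM (adjusted p = 0.000205), and Prkg1, a cGMP-dependent kinase gene, fell from 20.2 ± 3.02 to 11.97 ± 1.37 CPM (adjusted p = 0.000632). Gucy1a2 (-0.84) was called as well but was lost without normoxia replicate 1 (-0.674), normoxia replicate 3 (-0.804) or hypoxia replicate 3 (-0.67). Prkg2 (-0.65) overlapped between conditions and lost its call without normoxia replicate 1 (-0.45), normoxia replicate 3 (-0.706), hypoxia replicate 2 (-0.437) or hypoxia replicate 3 (-0.678). Cygb, the cytoglobin gene of stellate cells, whose protein consumes NO, had 702, 650 and 716.5 CPM in normoxia and 422, 419 and 396 CPM in hypoxia (log2 fold change -0.74, SE 0.06, adjusted p = 1.03e-05). The neuroglobin gene Ngb (1.17, adjusted p = 0.0346) was called from 4 to 28 counts per library and was lost in DESeq2 and without normoxia replicate 1 (0.856), normoxia replicate 2 (1.18), hypoxia replicate 2 (1.18) or hypoxia replicate 3 (0.93).

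**Figure D4:**
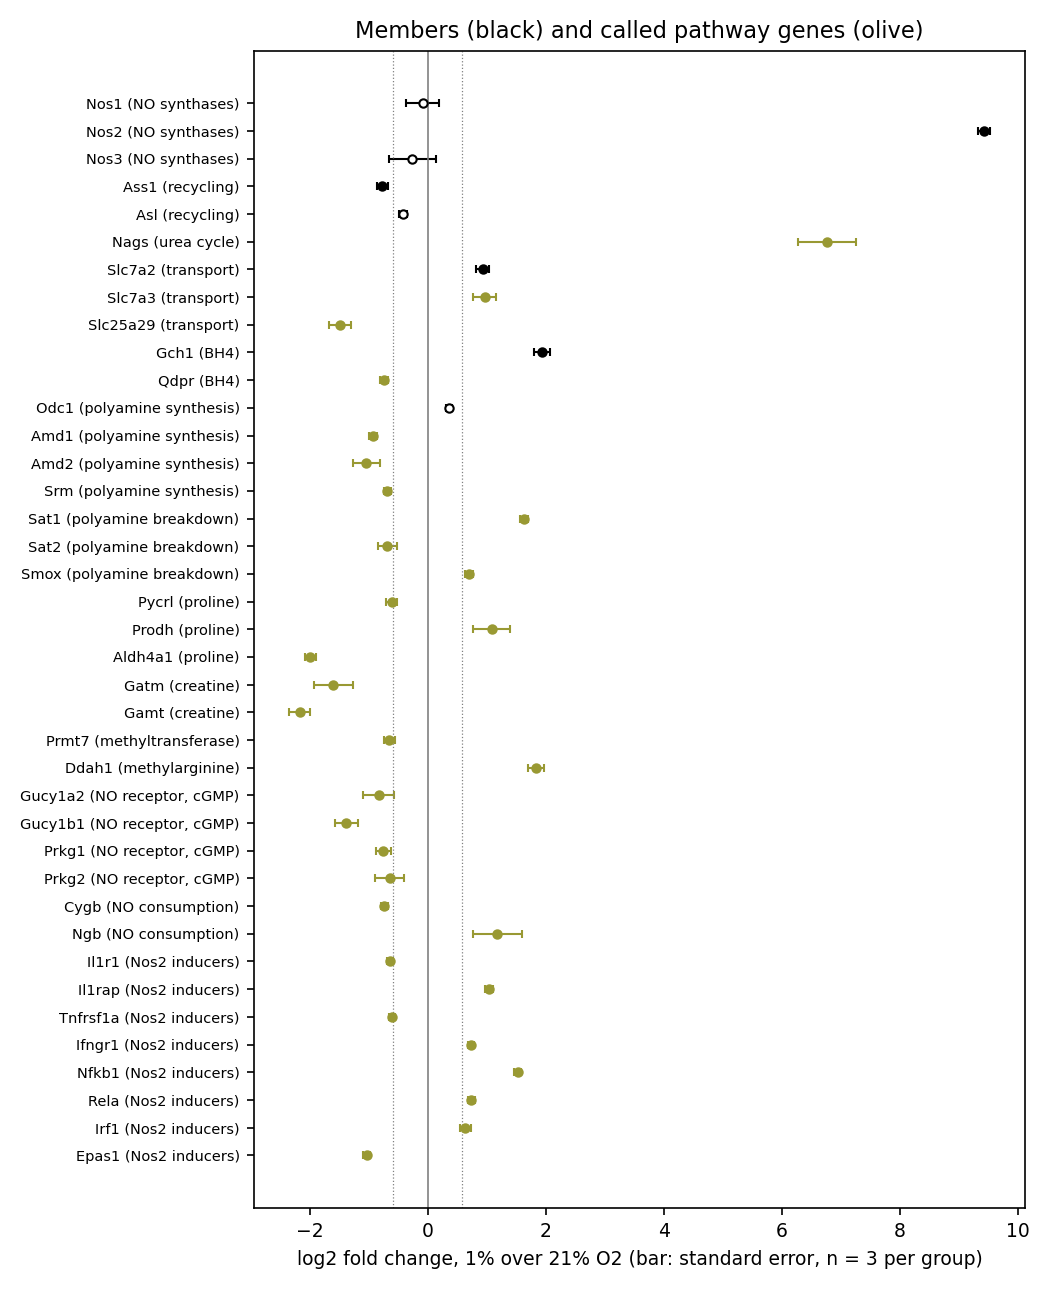
Log2 fold changes of 1% over 21% O2 for the 8 arginine and NO genes (black) and the called genes of the wider pathway (olive). Bars are standard errors (n = 3 per group), open points are genes not called, and dotted lines mark a fold of 1.5. The bars of Nos2 and Nags are too short, because their few normoxic counts carry more counting error. Nos2 at 9.42 and Nags at 6.76, a fitted value that rests on 3 normoxic counts in all, lie farthest to the right, Sat1, Ddah1 and Nfkb1 lie between 1.52 and 1.83, and Gamt (-2.18) and Aldh4a1 (-1.99) have the most negative values.

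Nos2 transcription is known to respond to NF-kB and IRF1 downstream of cytokine receptors, and to hypoxia-inducible factors. Of 13 such receptor and factor genes 5 rose and 3 fell. Nfkb1, a subunit gene of NF-kB, had 61.0, 64.6 and 61.1 CPM in normoxia and 179, 181 and 175 CPM in hypoxia (log2 fold change 1.52, SE 0.05, adjusted p = 6.94e-08). Its partner Rela rose from 64.5 ± 2.97 to 108 ± 4.005 CPM (adjusted p = 6.30e-06). The interleukin-1 receptor chains moved in opposite directions, Il1rap rising by 1.03 (SE 0.07, adjusted p = 2.42e-06) and Il1r1 falling from 415 ± 3.73 to 266 ± 5.87 CPM (adjusted p = 7.69e-06). Ifngr1, the interferon gamma receptor gene, rose by 0.72 (SE 0.05, adjusted p = 4.78e-06). Irf1 rose by 0.63 (SE 0.09, adjusted p = 0.000261) but was short of the fold limit without normoxia replicate 3 (0.553). The TNF receptor gene Tnfrsf1a fell by 0.61 (SE 0.06, adjusted p = 1.77e-05). Epas1, the HIF-2alpha gene, fell from 99.0 ± 3.76 to 48.2 ± 1.36 CPM (adjusted p = 6.38e-07), and Hif1a, with a log2 fold change of 0.42 (SE 0.07), was not past the fold limit.

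The 5 genes whose log2 CPM across the 6 samples, computed with a prior count of 2 and centred on its mean, lay nearest to that of Nos2 by Euclidean distance were Gipr (0.763), Glt1d1 (1.56), Pgf (1.99), H2-Q2 (2.15) and Sncb (2.96). Gipr, the receptor gene for the incretin GIP, had 8, 8 and 15 counts in normoxia and 5262, 6863 and 7835 in hypoxia. Pgf, the placental growth factor gene, was at 185, 186 and 188 CPM in hypoxia, the highest 1.01 times the lowest. Glt1d1, H2-Q2 and Sncb had between 0 and 3 counts in every normoxic library and 191 to 1181 in the hypoxic ones, so that their distances and their places in this order depend on that prior count. H2-Q2 belongs to a family of near-identical genes, so its counts are uncertain.

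Markers of other cells were read as a check of the labelled cell type. The 12 fibroblast and stellate markers, such as collagen genes, summed to 28462 to 35660 CPM in normoxia and 30496 to 35343 CPM in hypoxia. Most of that sum was Col1a1, Col1a2 and Col3a1, none of which was called, and of the 12 markers 2 rose and 2 fell. Pdgfra, a receptor gene for platelet-derived growth factor, rose from 568 ± 34.4 to 999 ± 41.7 CPM (adjusted p = 9.79e-06) and Pdpn, the podoplanin gene, from 215 ± 16.4 to 426 ± 22.4 CPM (adjusted p = 4.39e-06). Lum, which encodes the matrix proteoglycan lumican, fell from 221 ± 39.9 to 49.1 ± 12.9 CPM (adjusted p = 1.18e-05) and Thy1 from 391 ± 37.2 to 195 ± 27.2 CPM (adjusted p = 4.30e-05). Endothelial cells are the usual source of Nos3, and their 8 markers summed to 17.7 to 24.2 CPM in normoxia and 26.0 to 36.0 CPM in hypoxia, with 2 of 7 tested higher and 2 lower. The higher ones were Tek, a receptor gene for angiopoietins, which rose from 5.14 ± 0.518 to 11.5 ± 2.70 CPM (adjusted p = 0.000363), and Egfl7, which rose from 6.27 ± 0.900 to 11.4 ± 1.60 CPM (adjusted p = 0.000626). Without these 2 genes, an alternative added after the values were seen, the sum was 7.33 to 12.2 CPM in normoxia and 6.44 to 8.96 CPM in hypoxia. The lower ones, Kdr and Cldn5, both lost their call without hypoxia replicate 1 (-0.63 and -0.647) or normoxia replicate 3 (-0.553 and -0.749), and Kdr also without normoxia replicate 1 (-0.766) or hypoxia replicate 3 (-0.682) and with the replicate block. In DESeq2 with that block both calls were lost. The 10 epithelial markers summed to 3.26 to 5.40 CPM and 24.98 to 29.1 CPM. Most of the hypoxic sum was Krt19, with 525 to 760 counts, whereas the defining epithelial genes Epcam and Cdh1 had 0 or 1 count in every library. Of 7 acinar markers 5 were at 0 in all libraries. The 6 mesothelial markers summed to 21.5 to 29.6 CPM and 61.2 to 65.5 CPM. Nearly all of it was Wt1, which rose from 24.3 ± 4.35 to 41.2 ± 0.550 CPM (adjusted p = 0.000342), and Krt19, the gene already counted among the epithelial markers. The other 4, Upk3b, Msln, Lrrn4 and Upk1b, had 0 to 16 counts per library, were not tested, and had lower mean levels in hypoxia (0.127, 0.0740, 0.0425 and 0.0105 CPM) than in normoxia (0.419, 0.235, 0.193 and 0.153 CPM). The 6 adipocyte markers summed to 651 to 1609 CPM in normoxia and 76.4 to 96.8 CPM in hypoxia, and all 5 tested fell. The part of these cells in the values of the 8 genes was not tested.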

How the data were processed

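RNA was sequenced from PSCs cocultured with mT3 organoids, 3 samples at 21% O2 and 3 at 1% O2 after 48 h, grouped by the labels. The authors made poly(A) libraries, trimmed reads with Cutadapt, mapped them to GRCm38 with STAR (version 2.6.1b, per the submitters' processing notes) and deposited RSEM (1.3.1) expected counts, estimates of the reads of each gene without normalization between samples. The annotation release and the strand setting are not given in the sources used here. All deposited values were whole. Library totals ran from 24749601 to 31925054 counts. At the TMM-scaled library sizes 3 counts correspond to 0.0943 to 0.1217 CPM, and intervals cover counting error only. Replicates of a condition differed by more than sampling noise.

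Gene names, positions and exon lengths came from GENCODE M21, in which 55240 of 55426 features were found. edgeR 4.0.16 (R 4.3.3, limma 3.58.1) was used with filterByExpr (minimum count 10), TMM and glmQLFTest, and p-values were adjusted by Benjamini-Hochberg over 16207 genes. Genes were called beyond a fold of 1.5 at an adjusted p under 0.05, thresholds taken from the study. The standard error is the size of the log2 fold change divided by the square root of F. It is too small for large changes from few counts, as for Nos2 and Nags. The fits were tested on simulated data. Alternatives were DESeq2 1.42.0, limma-voom, other normalizations, filters and thresholds, a replicate block, and each replicate left out. Pathway genes are named where they had the most positive or most negative called change of their list, or where the description needed them, and the 5 genes nearest to Nos2 by their distance over 6 samples at a mean of at least 1 CPM. Of the 10 genes selected by the rule 2, and of the other listed genes 3, are not reported here and are in no count of the set or the lists. Pycr3 was matched to the annotation as Pycrl. The members and the lists were chosen with earlier results of these data known.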

Additional observations from a re-analysis of the deposited data

How the results depend on the processing

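At the same thresholds 4 of the 8 genes were called under every other normalization, filter and tool and with each replicate left out, and 117 of 120 single values kept their direction and call. The other 3 were those of Nos1, which reversed when 1 library was left out, within a range of -0.39 to 0.0427. The log2 fold change of Nos2 stayed within 9.31 to 9.48, that of Gch1 within 1.82 to 2.10, that of Slc7a2 within 0.80 to 1.06 and that of Ass1 within -0.84 to -0.66. Without a fold threshold 10168 genes were called in all, 57 of them pathway genes outside the 8 and 6 of them among the 8. With a fold beyond 2 there were 3156, 14 and 2, as the construction of these thresholds requires. Asl and Odc1 were added to the called genes without the threshold. With each replicate left out, 5226 to 5662 genes and 28 to 32 pathway genes were called. DESeq2 called 5305 genes and limma-voom 5555.

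Same-numbered samples of the 2 conditions were compared by how their departures from the mean of their condition correlated over genes (0.14, 0.14 and 0.04), and the labels do not say that the numbers mark a shared culture. A fit with the replicate block called 5572 genes, 4 of the 8 and 32 pathway genes. Depth limits the reading of Nos3 and Nos1, which had at most 55 counts in any library.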
